A study of Rattus norvegicus with 6 samples.

Results

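The semaphorins, their plexin and neuropilin receptors, and the ephrins with their Eph receptors were examined in RNA-seq counts from the amygdala of adult male Sprague Dawley rats. The members were chosen by gene symbol, and 54 of the 38445 genes in the counts matched. Of these, 53 had at least 10 counts in at least 3 of the 6 libraries, and these 53 were 20 semaphorins, 9 plexins, 2 neuropilins, 5 ephrin-A, 3 ephrin-B, 9 EphA and 5 EphB genes. The pseudogene Plxnb2-ps1 did not reach the minimum. The control group was injected with saline and the ethanol group with ethanol at 1 g/kg, both by the intraperitoneal route, and amygdala was collected 1 h afterwards. Each group of 6 rats gave 3 libraries, because RNA of 2 rats was pooled before each library was made, so the spread between libraries averages over the single rats. The labels name no genetic change and no other treatment in either group. The question put to these genes was which of them differed in RNA level between the ethanol and control groups after this single dose.

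Semaphorins and ephrins are families of ligands that steer growing axons, mostly by repulsion, and in the adult brain they act at synapses and dendritic spines. Class 3 semaphorins are secreted and signal through a neuropilin joined to a plexin, whereas the classes bound to the membrane mostly bind plexins directly. Ephrin-A proteins are held on the cell surface by a lipid anchor and ephrin-B proteins span the membrane, and both kinds bind Eph receptor tyrosine kinases on a neighbouring cell, with signals passing into both cells.

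Assigned reads lay between 62576504 and 70755739 per library, and 3 counts corresponded to 0.0424 to 0.0479 counts per 1e6 assigned reads (CPM). CPM of genes below are also TMM-scaled between libraries. The libraries differed in cell type markers beyond the grouping. Markers of cortical-type glutamatergic neurons summed to 298 to 533 RPKM, which is CPM per 1000 bases of gene length, in the control libraries and to 480, 624 and 297 RPKM in ethanol 1, 2 and 3. Oligodendrocyte markers summed to 1063 to 2461 RPKM in the controls and to 1291, 1785 and 2811 RPKM in ethanol 1, 2 and 3. The 8 choroid plexus markers summed to 633 to 1368 RPKM in the controls but to 9.97 RPKM in ethanol 1, 9.42 RPKM in ethanol 2 and 585 RPKM in ethanol 3. Ethanol 3 thus stood apart from the other ethanol libraries in all 3 of these marker sums. In pooled tissue, fewer cells of a type and less RNA per cell cannot be told apart.

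Nearly all of the guidance genes were measured well above the counting limit, with 18 of the 53 at a mean of 10 RPKM or more over the 6 libraries, 32 from 1 to below 10 RPKM and 3 below 1 RPKM. The ephrin-B3 gene Efnb3, a ligand for EphB and EphA4 receptors, had the highest level of all, 61.8 ± 12.3 RPKM in controls and 59.4 ± 9.09 RPKM after ethanol (mean ± SD, n = 3 libraries each). The other ephrin-B genes were Efnb2 at a mean of 19.0 RPKM and Efnb1 at 9.19 RPKM. Among the ephrin-A genes, Efna3 led at 22.9 RPKM, above Efna5 at 6.68 RPKM and Efna2 at 3.73 RPKM. Efna4, Efna3 and Efna1 lie close together on chromosome 2 of Rnor_6.0 (188588808 to 188660179), and their levels were 0.668, 22.9 and 1.09 RPKM. The transmembrane semaphorin genes Sema6b, Sema4f and Sema4a had nearly the same level, Sema6b at 24.1 RPKM, Sema4f at 24.0 RPKM and Sema4a at 22.3 RPKM, and their ranges over the libraries overlapped. Levels of the other semaphorins reached down to 2.45 RPKM. The plexin receptors spanned from 6.86 to 20.1 RPKM, led by Plxnb1 and followed by Plxnc1 (18.2 RPKM) and Plxna1 (15.2 ± 1.65 RPKM in controls). Neuropilin 2 (Nrp2) had 15.3 RPKM and neuropilin 1 (Nrp1) 8.62 RPKM. EphA receptors spanned from 0.052 RPKM for Epha1 to 17.6 RPKM for Epha4, with Epha5 at 13.5 RPKM and Epha10, whose kinase domain is thought to be inactive, at 5.65 RPKM. The leading EphB genes were Ephb6, also a kinase-inactive receptor, at 9.78 RPKM, Ephb1 at 5.83 RPKM and Ephb3 at 3.69 RPKM.

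**Figure D1:**
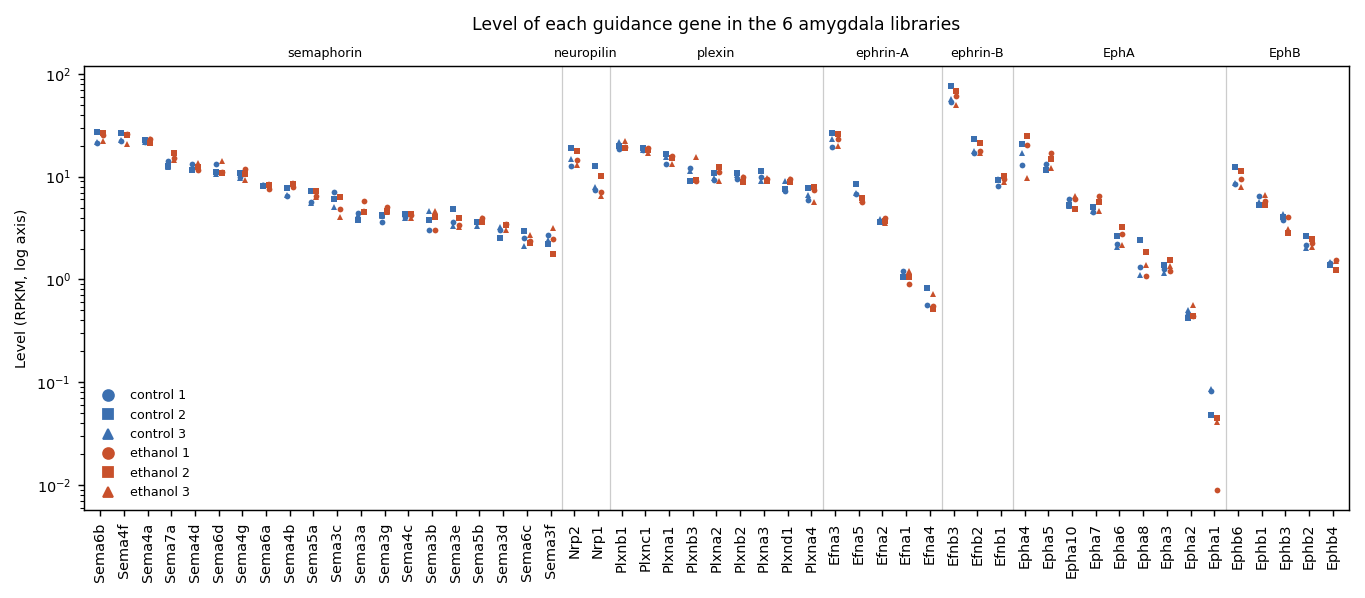
Level of each of the 53 guidance genes in each of the 6 libraries, in RPKM on a log axis, grouped by family and ordered by mean level. Blue symbols are control and red symbols ethanol libraries, and the symbol shape gives the replicate number. Efnb3 is the highest gene at a mean of 60.6 RPKM and Epha1 the lowest at 0.052 RPKM, and for most genes the blue and red symbols lie together.

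Differences between the groups were tested with the quasi-likelihood method of edgeR across all 18141 genes that passed its filter on low counts, with Benjamini-Hochberg adjustment and the study's threshold of 0.2. None of the 53 guidance genes passed that threshold, and 0.00% of all genes tested did, the smallest adjusted p being 0.818 over all genes and 1.0 among the guidance genes. DESeq2, limma-voom and edgeR's likelihood ratio test likewise gave 0 guidance genes at this threshold. Over all genes tested they called 75, 0 and 77, so the 0.00% belongs to the quasi-likelihood test. The paper reports genes called at this threshold, by a test not given in the sources used here. At an unadjusted p below 0.05, 5 guidance genes (9.43%) were higher after ethanol, beside 1.57% of all genes tested, and 2 (3.77%) were lower, beside 2.58%. Every ethanol library lay above every control library for 5 of the 53 (9.43%), against 3.65% of all genes, and below for 2 (3.77%), against 5.19%. The genes called lower and those wholly below both include Epha1. That gene had few counts and passed the filter on low counts through the controls, where it was higher. All of these numbers of genes moved with single libraries. The number higher was 2 without control 1, control 3 or ethanol 1, where 1.37%, 1.24% and 1.56% of all genes were called higher. It was 3 without ethanol 2 and 8 without ethanol 3, beside 1.41% and 4.48% of all genes. The number lower was 1 without control 1, control 3 or ethanol 3, beside 2.54%, 1.86% and 4.40% of all genes. It was 3 without ethanol 2, beside 1.74%. The number lying wholly above the controls was 8 without control 2 or ethanol 2, against 1837 of 18391 and 1237 of 18414 genes tested. It was 11 without ethanol 3, against 2618 of 18356. The number wholly below was 5 without control 1, against 1813 of 18387, and 4 without ethanol 2, against 1403 of 18414. Fewer libraries are easier to separate. Log2 fold changes of ethanol over control were under 0.1 in size for 30 of the 53, and their median was 0.02, against 0.01 for all genes. The fold change was above 0 for 31 (58.5%), beside 52.6% of all genes tested, and below 0 for 22. The 95% interval of the fold change stayed within 0.5 of 0 on the log2 scale for 39 of the 53, and it reached 0.5 or beyond for the other 14, among them Epha4, Epha8, Nrp1, Sema3c and Epha1.

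**Figure D2:**
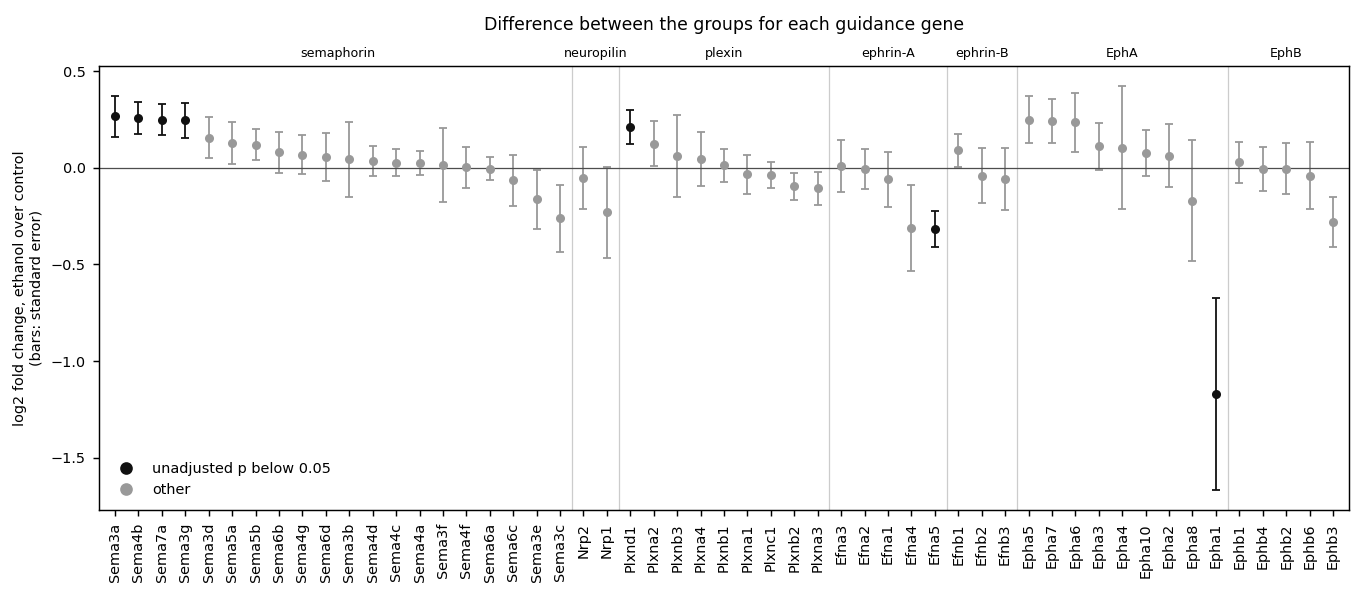
Log2 fold change of ethanol over control for each guidance gene, with bars of 1 standard error from edgeR's quasi-likelihood fit, grouped by family and ordered by size. Black marks the 7 genes with an unadjusted p below 0.05, of which 4 are semaphorins with fold changes from 0.25 to 0.27. No gene passed the adjusted threshold of 0.2.

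Promoter sequence is shown for the 4 guidance genes with the smallest p that had an entry, as the 250 bases upstream of the RefSeq start in GRCr8, read 5′ to 3′ along the gene. Capitals mark matches, on either strand, to the cores of the hypoxia response element, ACGTG and GCGTG, which appear as CACGT and CACGC where the match is on the other strand. The glucocorticoid half-site AGAACA and the cyclic AMP response element TGACGTCA were searched for as well and had no match in these 4 windows. Efna5 lies on the minus strand (chr9:110042188-110042437), and Sema7a (chr8:67244068-67244317), Sema4b (chr1:143558547-143558796) and Sema3g (chr16:6419775-6420024) lie on the plus strand.
Efna5: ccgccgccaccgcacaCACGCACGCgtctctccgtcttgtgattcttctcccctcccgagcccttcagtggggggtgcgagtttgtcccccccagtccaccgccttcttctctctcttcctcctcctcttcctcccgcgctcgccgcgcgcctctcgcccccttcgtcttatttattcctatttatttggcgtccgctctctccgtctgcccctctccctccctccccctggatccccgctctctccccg
Sema7a: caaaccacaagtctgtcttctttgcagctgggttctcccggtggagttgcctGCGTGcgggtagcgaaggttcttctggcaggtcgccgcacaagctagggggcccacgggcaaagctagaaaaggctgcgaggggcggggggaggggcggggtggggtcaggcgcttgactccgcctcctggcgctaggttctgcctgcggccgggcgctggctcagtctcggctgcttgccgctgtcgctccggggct
Sema4b: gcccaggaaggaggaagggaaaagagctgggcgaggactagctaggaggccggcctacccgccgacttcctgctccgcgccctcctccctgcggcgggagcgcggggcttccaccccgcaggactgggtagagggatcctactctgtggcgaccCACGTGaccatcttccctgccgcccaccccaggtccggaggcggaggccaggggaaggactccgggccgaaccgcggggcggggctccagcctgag
Sema3g: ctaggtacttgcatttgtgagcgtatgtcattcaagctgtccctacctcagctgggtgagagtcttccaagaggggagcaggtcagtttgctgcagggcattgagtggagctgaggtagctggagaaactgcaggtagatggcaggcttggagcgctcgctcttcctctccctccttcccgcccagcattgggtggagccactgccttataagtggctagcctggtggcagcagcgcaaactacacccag
The Efna5 window held 2 matches to GCGTG that share a base, Sema7a held 1, Sema4b held CACGTG, which counts as ACGTG on both strands, and Sema3g held neither core. Over the 43 guidance genes with a window, 37.21% held GCGTG against 27.17% of all 27457 windows, 13.95% held ACGTG against 16.95%, 4.651% held AGAACA against 17.08% and 2.326% held TGACGTCA against 1.697%. The windows of the guidance genes had a median GC content of 61.2%, against 52% for all windows, and what part this has in the matches to the GC-rich core was not tested. A match describes the letters only.

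Of the 20 semaphorin genes, 16 had a fold change above 0 and 4 below, and 4 had an unadjusted p below 0.05, all of them higher after ethanol. Over all genes tested, 52.6% had a fold change above 0 and 1.57% were higher at that p. Sema7a (gene 315711, chromosome 8, 62723788 to 62746530 of Rnor_6.0) encodes a lipid-anchored semaphorin that binds plexin C1 and integrins. It was at 48.0, 43.4 and 42.5 CPM in control libraries 1, 2 and 3 and at 51.7, 57.7 and 49.7 CPM in ethanol libraries 1, 2 and 3. All 3 ethanol libraries lay above all 3 controls, with ethanol 2 the highest and a gap between the groups from control 1 to ethanol 3. The log2 fold change was 0.25 (SE 0.08, 95% interval 0.07 to 0.43), with an unadjusted p of 0.0139 from edgeR's quasi-likelihood test. Without control 3 the fold change was 0.22 (edgeR unadjusted p = 0.0548), and without ethanol 2 it was 0.19 (unadjusted p = 0.0531).

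Sema4b (gene 293042, chromosome 1, 141986145 to 142014400), a transmembrane semaphorin found at synapses, was at 22.5, 26.8 and 22.8 CPM in the controls and at 27.5, 29.0 and 29.7 CPM after ethanol. The groups did not overlap, but control 2 came close to ethanol 1. Its log2 fold change was 0.26 (SE 0.08, 95% interval 0.06 to 0.45, edgeR unadjusted p = 0.0166), and it was 0.20 without control 1 (edgeR unadjusted p = 0.068) and 0.22 without control 3 (unadjusted p = 0.0606).

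Sema3g (gene 290562, chromosome 16, 7303582 to 7315214), which encodes a secreted semaphorin that signals through neuropilin 2, was at 13.1, 15.5 and 14.9 CPM in the controls and at 18.4, 16.7 and 16.5 CPM after ethanol. Here ethanol 1 stood above the other libraries, and the lowest ethanol library was above the highest control. Its log2 fold change was 0.25 (SE 0.09, 95% interval 0.03 to 0.46, edgeR unadjusted p = 0.0286). Leaving out control 1 gave 0.17 (edgeR unadjusted p = 0.11) and leaving out ethanol 1 gave 0.19 (unadjusted p = 0.106). Sema3a (gene 29751, chromosome 4, 18170375 to 18545190), the best known secreted repellent, which signals through neuropilin 1 and class A plexins, was at 53.5, 46.3 and 52.0 CPM in controls and at 70.8, 55.4 and 56.4 CPM after ethanol. Ethanol 1 stood far above the other 5 libraries, while ethanol 2 and 3 were only just above control 1. The log2 fold change of 0.27 (SE 0.11, 95% interval 0.02 to 0.51, edgeR unadjusted p = 0.0379) was 0.14 without ethanol 1 (edgeR unadjusted p = 0.129), 0.21 without control 2 (unadjusted p = 0.122) and 0.29 without control 3 (unadjusted p = 0.0638). In each of these 4 semaphorin genes a 2-sided exact permutation test over the libraries gave p = 0.1, the smallest that 3 libraries against 3 allow.

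None of the remaining 16 semaphorins had an unadjusted p below 0.05 in the same fit, and apart from Sema3c their fold changes were smaller in size than those of the 4 genes above. All 6 class 4 genes had a fold change above 0, but besides Sema4b they ranged only up to 0.07, and the intervals were narrow for Sema4a (-0.12 to 0.17) and Sema4c (-0.14 to 0.19). Sema4f, which like Sema4b has been tied to synapses, was at 95.3 ± 9.15 CPM in controls and 95.4 ± 11.6 CPM after ethanol (SD, n = 3 each). Both class 5 genes were slightly higher. Sema5b was at 12.6, 12.4 and 11.5 CPM in controls and at 13.5, 12.6 and 13.5 CPM after ethanol. Its groups did not overlap but all but touched, at 12.5735 CPM in control 1 and 12.5755 CPM in ethanol 2. Its log2 fold change was 0.12, with an edgeR unadjusted p of 0.173. The class 6 genes, ligands of class A plexins, lay between -0.07 and 0.08, with Sema6b at 121 ± 15.8 and 128 ± 10.9 CPM. Class 3 held the widest spread, from Sema3a at 0.27 to Sema3c at -0.26 (edgeR unadjusted p = 0.172) and Sema3e at -0.16 (edgeR unadjusted p = 0.311). On chromosome 4, from 14318276 to 19413519, lie Sema3c, Sema3e, Sema3a and Sema3d in this order, with fold changes of -0.26, -0.16, 0.27 and 0.16.

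**Figure D3:**
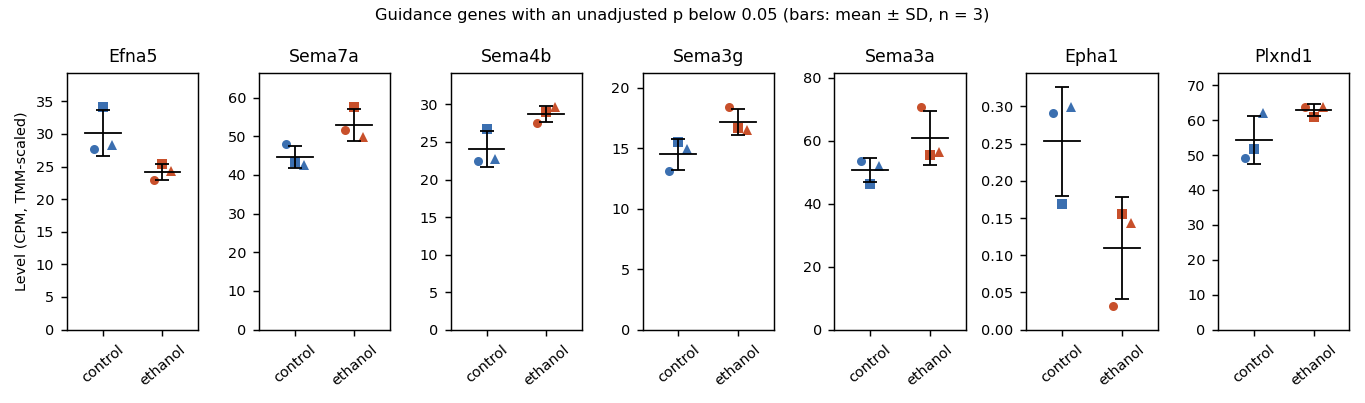
CPM in each library for the 7 guidance genes with an unadjusted p below 0.05, with bars for the mean ± SD of 3 libraries and every axis starting at 0. Blue is control and red ethanol, and the symbol shape gives the replicate number. The groups do not overlap for Efna5, Sema7a, Sema4b, Sema3g, Sema3a and Epha1, whereas control 3 lies among the ethanol libraries for Plxnd1. Epha1 had few counts and passed the filter on low counts through the controls.

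Among the receptors of semaphorins, Plxnd1 was the one gene with an unadjusted p below 0.05. Plexin D1, the receptor of semaphorin 3E in vessels and neurons (gene 312652, chromosome 4, 147854309 to 147894170), was at 49.2, 51.7 and 62.1 CPM in the controls and at 63.8, 60.8 and 63.8 CPM after ethanol. Control 3 was level with the ethanol libraries, so the groups overlapped, and the exact permutation p was 0.2. The log2 fold change was 0.21 (SE 0.09, 95% interval 0.00 to 0.42, edgeR unadjusted p = 0.0491). It was 0.14 without control 1 (edgeR unadjusted p = 0.19), 0.18 without control 2 (unadjusted p = 0.136), and 0.20, 0.23 and 0.20 without ethanol 1, 2 and 3 (unadjusted p = 0.113, 0.0644 and 0.092), whereas it was 0.32 without control 3 (edgeR unadjusted p = 0.0029). Its ligand gene Sema3e was 0.16 lower on the log2 scale in the same fit.

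The other 8 plexin genes had fold changes between -0.11 and 0.13, 4 above 0 and 4 below, with intervals that excluded changes beyond 0.3 for Plxna1, Plxnb1, Plxnb2 and Plxnc1. Plexin C1, the receptor of semaphorin 7A, was at 132 ± 4.38 CPM in controls and 129 ± 7.89 CPM after ethanol, a log2 fold change of -0.04 (95% interval -0.19 to 0.11), beside the higher value of Sema7a. Plxnb1, a receptor of semaphorin 4D, was at 187 ± 14.0 and 188 ± 15.7 CPM (SD, n = 3 each). Plxna1, a partner of the neuropilins, was at 121, 150 and 140 CPM in controls and at 143, 138 and 120 CPM after ethanol, so its groups overlapped fully. Both neuropilin genes had a fold change below 0. Nrp1 was at 46.2, 77.8 and 48.9 CPM in controls and at 44.0, 63.5 and 39.9 CPM after ethanol, and Nrp2 at 101, 151 and 119 CPM and at 114, 140 and 103 CPM. In both, the libraries numbered 2 were the highest of their group and the groups overlapped widely. Their log2 fold changes of -0.23 and -0.05 (SE 0.23 and 0.16) became 0.05 and 0.12 without control 2.

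In the ephrin-A family 1 gene had a fold change above 0 and 4 below. Efna5 had the smallest p of all guidance genes. It encodes ephrin-A5, a repellent ligand that guides topographic maps (gene 116683, chromosome 9, 110054002 to 110329878, minus strand). Its levels were 27.8, 34.2 and 28.4 CPM in the controls and 22.9, 25.3 and 24.3 CPM after ethanol. Every ethanol library lay below every control, and control 2 was well above the rest. The log2 fold change was -0.32 (SE 0.09, 95% interval -0.53 to -0.10), a difference of -19.7%, with an unadjusted p of 0.0102 from edgeR's quasi-likelihood test and an exact permutation p of 0.1. Efna5 kept an unadjusted p below 0.05 in 14 of 14 other settings (edgeR, DESeq2 and limma-voom, other scalings and filters, the replicate number and each library left out), though not with the choroid plexus marker score as a covariate, and its fold change ran from -0.38 without control 1 to -0.21 without control 2. None of the other ephrin genes had an unadjusted p below 0.05. Efna3 was at 53.7 ± 8.33 CPM in controls and 54.0 ± 7.52 CPM after ethanol and Efna2 at 4.40 ± 0.108 and 4.38 ± 0.267 CPM (SD, n = 3 each). Efna4, the lowest of the family in both groups, had a fold change of -0.31 with a wide interval of -0.83 to 0.21. The ephrin-B genes lay near 0, at 0.09 for Efnb1, -0.04 for Efnb2 and -0.06 for Efnb3, with 95% intervals that stayed within 0.5.

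Of the receptors of ephrin-A proteins, 7 of 9 EphA genes had a fold change above 0, with a median of 0.10 on the log2 scale, but Epha1 alone had an unadjusted p below 0.05 and it was lower. Epha1 (gene 312279, chromosome 4, 71749100 to 71763681) was barely measured, with 19, 12 and 19 counts in the controls and 2, 10 and 10 counts after ethanol. It passed the filter on low counts through the controls and its counts were few, so the log2 fold change of -1.17 (SE 0.50, 95% interval -2.32 to -0.02, edgeR unadjusted p = 0.0476) rests on ethanol 1, without which it was -0.74 (edgeR unadjusted p = 0.103). Without control 1, control 3 or ethanol 3 it was -1.06, -1.03 and -1.41 (edgeR unadjusted p = 0.117, 0.125 and 0.0511).

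Epha5, Epha6 and Epha7 were each higher by about the same amount, with log2 fold changes of 0.25, 0.24 and 0.24 and edgeR unadjusted p of 0.076, 0.162 and 0.0716. Epha5, a receptor of ephrin-A5, was at 117, 102 and 110 CPM in controls and at 152, 132 and 108 CPM after ethanol. Ethanol 1 and 2 were above all controls and ethanol 3 was among them. Epha7 had the same arrangement, at 41.7, 46.5 and 42.6 CPM in controls and 59.2, 52.7 and 42.8 CPM after ethanol. Without ethanol 3 the Epha5 fold change was 0.37 (edgeR unadjusted p = 0.00327, adjusted p = 0.302), without ethanol 1 it was 0.13 (edgeR unadjusted p = 0.283), and with the choroid plexus score as a covariate it was -0.11 (edgeR unadjusted p = 0.282). Epha4, which binds ephrins of both classes, varied widely among libraries, at 83.8, 134 and 108 CPM in controls and 130, 158 and 62.2 CPM after ethanol. The lowest and the highest of its 6 values were both ethanol libraries, and its fold change was 0.10 with an interval from -0.63 to 0.84. Single libraries turned its sign, with -0.18 without ethanol 2, -0.06 without control 1 and 0.41 without ethanol 3. Epha10 was at 34.1 ± 3.03 and 35.9 ± 5.38 CPM (SD, n = 3 each).

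In the EphB family, 1 of 5 genes had a fold change above 0 and none had an unadjusted p below 0.05. Ephb3, a receptor of ephrin-B proteins, came nearest, at 16.1, 17.2 and 18.2 CPM in controls and 17.1, 12.1 and 13.2 CPM after ethanol. Its values were lower in ethanol 2 and 3 but not in ethanol 1, and its log2 fold change of -0.28 (edgeR unadjusted p = 0.0662) was -0.44 without ethanol 1 (edgeR unadjusted p = 0.00337) and -0.18 without ethanol 2 (edgeR unadjusted p = 0.204). Ephb2, which supports excitatory synapses, and Ephb4 had fold changes that round to 0.00, with 95% intervals of -0.31 to 0.30 and -0.27 to 0.26. Ephb1 was at 28.4 ± 2.90 and 28.9 ± 3.31 CPM, and Ephb6 at 40.3 ± 8.80 and 39.2 ± 7.19 CPM (SD, n = 3 each).

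These genes varied among the libraries within a group as well as between the groups. Control 2 held the highest value for 19 of the 53 guidance genes (35.8%), whereas it was the highest library for 17.9% of all genes tested. These 19 included Efnb3, Efnb2, Nrp1, Nrp2, Ephb6 and Sema4f. Ethanol 3 was the highest library for 13 guidance genes (24.5%) and the lowest for another 13 (24.5%). These shares lay near the 22.7% and 20.9% of all genes tested. Those highest in ethanol 3 included Plxnb3, Sema6d, Sema4d and Sema3b, and those lowest included Epha4, Nrp1, Plxna4 and Efnb3. These genes were picked from the list after their values were seen. Plexin B3, which oligodendrocytes express, was at 80.3, 58.9 and 74.4 CPM in controls and 59.4, 61.5 and 102 CPM after ethanol, with control 2 lowest and ethanol 3 highest. The 7 oligodendrocyte markers had the same extremes, with mean log2 differences from the control mean of 0.53, -0.56 and 0.03 in controls and -0.30, 0.09 and 0.71 after ethanol. For Epha4 the extremes were ethanol 3 and ethanol 2, as for the 8 cortical-type glutamatergic markers, whose mean log2 differences were -0.27, 0.27 and 0.00 in controls and 0.31, 0.64 and -0.43 after ethanol.

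**Figure D4:**
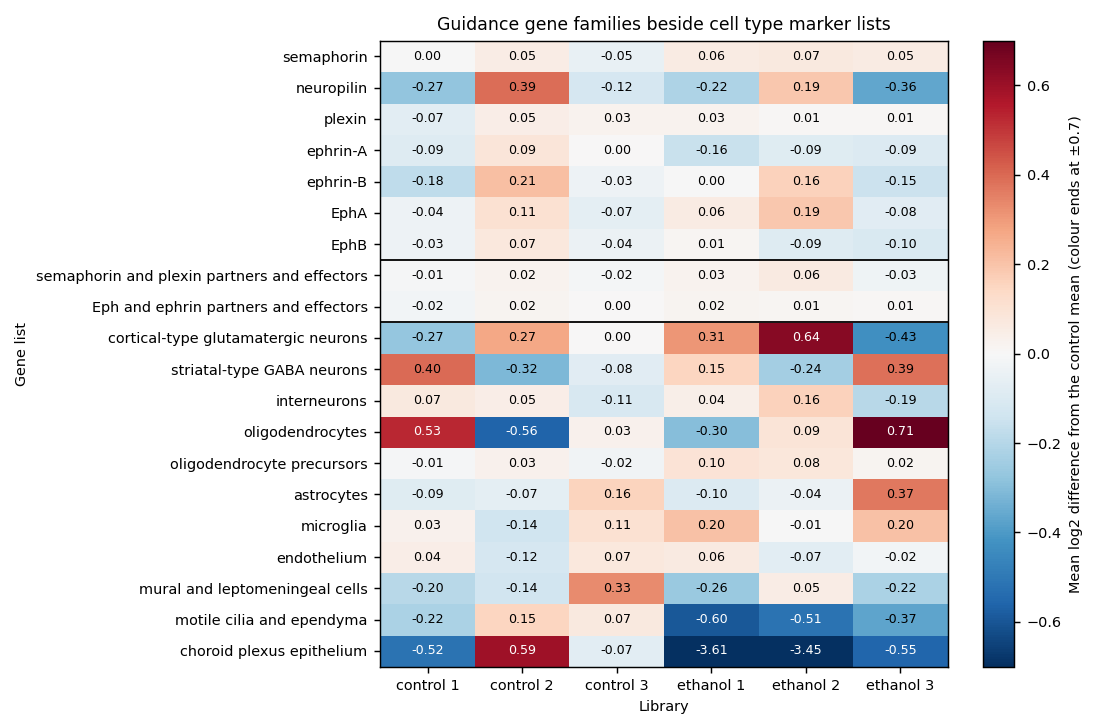
Mean log2 difference from the control mean in each library (columns) for the guidance gene families, the 2 partner lists and the cell type marker lists (rows), with each value printed and colours that end at 0.7 in either direction. Neuropilin, ephrin-B and EphA genes have their highest values in control 2 and ethanol 2, which are also the highest of their groups in glutamatergic neuron markers. Semaphorin and ephrin-A genes are likewise highest within each group in control 2 and ethanol 2, and plexin and EphB genes in control 2 and ethanol 1. Choroid plexus markers are at -3.61 and -3.45 in ethanol 1 and 2.

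The marker lists moved with the groups in part. All 8 choroid plexus markers had a fold change below 0 (median -1.82, 4 with an unadjusted p below 0.05), all 5 measured markers of motile cilia and ependyma did too (median -0.48, 3 below 0.05), and all 8 glutamatergic and all 7 oligodendrocyte markers had a fold change above 0 (medians 0.15 and 0.16, 1 and 0 below 0.05, edgeR). The endothelial markers had a median of -0.02 and none below 0.05. Of the microglial markers 4 of 6 were above 0, and 1, a higher one, had an edgeR p below 0.05. Of the 6 mural and leptomeningeal markers 5 had a fold change below 0, and 1 of these had an edgeR p below 0.05. The 5 interneuron markers tested had 3 fold changes above 0 and 2 below, with 1 lower at an edgeR p below 0.05. With the glutamatergic marker score as a covariate, an alternative added after the data were seen, edgeR gave Epha4 a fold change of -0.20 (unadjusted p = 0.00761) in place of 0.10, and Efna5, Sema7a, Sema4b, Sema3g, Sema3a and Plxnd1 kept an unadjusted p below 0.05, whereas Epha1 was at -1.09 (edgeR unadjusted p = 0.0662). Nrp1 also had an unadjusted edgeR p below 0.05 with the glutamatergic score. With that score 2.91% of all genes tested were called higher and 3.83% lower, beside 1.57% and 2.58% in the main fit. With the oligodendrocyte score, Plxnd1 was at 0.21 (edgeR unadjusted p = 0.052). The other 6 of the 7 genes below 0.05 in the main fit kept an unadjusted p below 0.05. Epha6 and Epha7 joined them there, where 2.39% of all genes tested were called higher and 2.91% lower. Calls at this p thus rose over the whole table with either score, not only among the guidance genes. With the choroid plexus score, which is lowest in ethanol 1 and 2, Sema4b was at 0.37 (edgeR unadjusted p = 0.0228), while Efna5 was at -0.24 (unadjusted p = 0.167), Sema7a at 0.12 (unadjusted p = 0.298), Sema3g at 0.21 (unadjusted p = 0.196) and Sema3a at 0.09 (unadjusted p = 0.577). Under the same score Plxnd1 was at 0.24 (edgeR unadjusted p = 0.148), Epha1 at -0.90 (unadjusted p = 0.298) and Epha4 at -0.80 (unadjusted p = 0.117). Besides Sema4b, only Sema3c had an unadjusted edgeR p below 0.05 under it. For the choroid plexus markers the mean log2 difference from the control mean was -3.61 and -3.45 in ethanol 1 and 2. In ethanol 3 it was -0.55, near the -0.52 of control 1. The choroid plexus score thus follows the grouping in part, and with 6 libraries its part cannot be told apart from that of ethanol. Plxnd1 and Sema3g lost an unadjusted p below 0.05 under it with fold changes near the 0.21 and 0.25 of the main edgeR fit. The part of cell type composition in these differences was not tested.

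Genes of proteins that act with or downstream of these families were mostly near 0. Of 37 partners and effectors of semaphorins and plexins, such as the collapsin response mediators, the Mical enzymes and adhesion molecules of the L1 family, 25 had a fold change above 0 and 12 below, with a median of 0.03, and 0 were higher and 1 was lower at an unadjusted edgeR p below 0.05. That gene was Kdr, the receptor of vascular endothelial growth factor that can pair with neuropilins. It was at 18.7, 15.7 and 21.6 CPM in controls and at 15.04, 14.1 and 12.5 CPM after ethanol, so each ethanol library was below each control, with a log2 fold change of -0.43 (SE 0.13, edgeR unadjusted p = 0.0101, adjusted p = 1.0). Of 32 partners and effectors of Ephs and ephrins, including the exchange factors Ngef, Tiam1 and Vav2 and the scaffolds Grip1 and Pick1, 18 were above 0 and 14 below, with a median of 0.02 and none at an unadjusted edgeR p below 0.05.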

How the data were processed

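RNA-seq was performed on amygdala of 3 control and 3 ethanol libraries. The authors deposited raw counts, made per the file headers with featureCounts 1.6.3 in reverse-stranded mode on the Rnor_6.0 annotation; the submitters' processing notes name STAR 2.7.0f. Reads with several alignments had been left out of these counts. The study's RNA-seq test is not given in the sources used here.

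Counts were analysed in R 4.3.3 with edgeR 4.0.16 (filterByExpr with a minimum of 10 counts and 15 in total, TMM, quasi-likelihood F test, Benjamini-Hochberg adjustment over 18141 genes). The standard error was the absolute log2 fold change divided by the square root of F. CPM and RPKM are TMM-scaled, and permutation tests used log2 CPM with a prior count of 2 and 20 label swaps. The script was tested on simulated data. Alternatives were DESeq2 1.42.0, limma 3.58.1, other scalings and filters, the replicate number and each library left out.

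Members and gene lists were chosen with earlier results of these data known. Named genes were the members with an unadjusted p below 0.05, the 3 highest members of each family by RPKM, and partner genes with an unadjusted p below 0.05; other genes were named after their values were seen. Promoter windows came from RefSeq (GRCr8), by gene ID, for 43 of 53 genes. Within each group the libraries varied beyond counting error, and p-values measure only the spread between pooled libraries.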

Additional observations from a re-analysis of the deposited data

How the results depend on the processing

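Across 14 other settings and 3 marker-score covariates chosen after the data were seen, no guidance gene passed an adjusted p of 0.2 (smallest 0.286, without ethanol 3). The edgeR likelihood ratio test, DESeq2 and the fit without ethanol 3 called 77, 75 and 83 genes of the whole table, and none of these was a guidance gene. The number higher at an unadjusted p below 0.05 (5) was 3 with library size alone and 1 with the choroid plexus score, and ran from 2 to 8 with 1 library left out, the 8 without ethanol 3, where 4.48% of all genes were called higher. The number lower (2) was 1 under DESeq2 and 1 with the choroid plexus score, beside 2.19% and 2.23% of all genes. It ran from 1 to 3 with 1 library left out, beside 1.74% to 4.40% of all genes. The number with every ethanol library above every control (5) was 3 with library size alone and 4 with RLE scaling. Of 18141 genes tested, 415 and 627 lay above in those settings. It ran from 5 to 11 with 1 library left out, beside 1237 to 2618 of all genes tested. The number below (2) ran from 2 to 5 with 1 library left out, beside 1403 to 2381 of all genes tested. With the replicate block, 7 were higher and 2 lower (2.27% and 3.32% of all genes), Epha5, Epha6 and Nrp1 joining and Epha1 leaving. Same-numbered libraries correlated by 0.0271, 0.387 and 0.21 in their deviations from the group means. Controls 2 and 3 correlated best with the ethanol library of their own number, but control 1 correlated best with ethanol 3 (0.304). Whether the numbers stand for a shared batch or pairing was not tested. The cause of these moves in the counts was not tested, and the fits with 1 library left out also had fewer libraries. The precision is limited by 3 pooled libraries per group, and genes near 0.05 RPKM also by counting.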
